A study of Rattus norvegicus with 6 samples.

Results

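Histone genes were followed in pulled-down RNA of GH4C1, an established line of rat pituitary cells that makes prolactin and growth hormone. They were chosen by gene name: rows whose name starts with Hist1h to Hist4h, H2af, H3f3, H1f, H1-, H2a, H2b, H3c or H4c. This rule matched 57 of the 32883 rows of the count table, and 46 of them held at least 1 count. Of these 46, 35 were replication-dependent histone genes (names starting with Hist), 10 were replacement histone genes, and H2afx was kept apart because it is known to give both kinds of mRNA. The class was read from the name alone.

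Both groups were wild type GH4C1 cells treated with psoralen, which crosslinks base-paired nucleic acid strands. The groups differed in the oligonucleotide pool used for the pull-down, called oligo pool A and oligo pool B in the labels, with 3 libraries each. The series sought RNAs in direct contact with the noncoding RNA Neat1, but the labels give neither the oligo sequences nor the part of the target that each pool binds, and no pool is labelled as a control. The labels do not state that the libraries came from separate cultures, so p-values measure only the spread between these libraries, which may be technical. A value here is a gene's share of what was recovered, and RNA before pull-down was not analysed here.

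Histones package DNA. The core histones H2A, H2B, H3 and H4 form the nucleosome, and H1 binds the linker DNA between nucleosomes. Replication-dependent histone genes lie in clusters, have no introns, are transcribed in S phase, and give mRNAs that end in a stem-loop in place of a poly(A) tail. Replacement histone genes lie alone, mostly have introns, give polyadenylated mRNA and are active throughout the cell cycle. Some clustered genes are known to give polyadenylated mRNA as well, and the table does not tell the forms apart.

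The 6 libraries held between 1826390 and 3685899 counts, so that 3 counts, the limit a count of 0 allows, corresponded to between 0.814 and 1.64 CPM, a library's count for a gene scaled to a common total. This limit covers counting error only. Between 27 and 31 histone genes reached 10 counts in a library. The line's markers Prl (386 to 759 CPM), Gh1 (149 to 187 CPM) and Pou1f1 (139 to 227 CPM) were present in all 6 libraries, while Ghrhr and Drd2 had no count. The whole list, 5 of 7 genes with counts, summed to between 6444 and 7119 CPM with pool A and between 29533 and 36546 CPM with pool B. Chgb, a granin, was higher with pool B (3411 to 4225 against 27494 to 34676 CPM), whereas Prl (680 to 759 against 386 to 498 CPM) and Scg2 (1843 to 1941 against 1167 to 1316 CPM) were higher with pool A. Summed over the matched markers, fibroblast genes (2 matched) reached at most 21.8 CPM, macrophage genes (2 matched) at most 23.0 CPM, and the endothelial gene Cdh5 at most 0.814 CPM. The corticotroph and gonadotroph genes (4 matched) summed to between 9.10 and 19.5 CPM with pool A and between 40.9 and 45.0 CPM with pool B, most of it Lhb, with Tshb and Fshb at 0. The part of these markers in the histone values was not tested.

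Gene names needed care. Neighbouring genes were compared for 31 histone genes with counts whose name stood on 1 row and matched a gene in RefSeq (GRCr8 assembly). The remaining 15 genes with counts were not checked. Of the 31, 27 had most of their neighbours in the table near them in RefSeq too, Hist1h2bk with 3 of 4 and the rest with all 4. The other 4 did not, among them both genes for histone H3.3, the replacement form of H3. The row named H3f3a (ENSRNOG00000006532) lies between Galk1 and Unk, which flank H3f3b in RefSeq, and the row named H3f3b (ENSRNOG00000003220) lies between Acbd3 and Sde2, which flank H3f3a in RefSeq. The names are used below as the table gives them, and in RefSeq's naming these rows would be exchanged. Hist2h4 and Hist1h4m were the other exceptions: their rows lie between Smco3 and Wbp11, beside H2afj. Among the rows not checked, Hist2h4a and Hist2h3c2 (ENSRNOG00000050478) lie between Slc17a2 and Hfe, among rows named Hist1.

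The promoters of the genes on which the results turn are shown because they differ between the classes in letters that histone genes are known for. Each line gives the 250 bases before the gene's start from RefSeq (GRCr8), 5′ to 3′ on the gene's strand, with 3 motifs in capitals wherever found on either strand: the TATA box TATAAA, the CCAAT box, and the octamer motif ATTTGCAT known from H2B genes. Overlapping matches run together.
Hist2h2ac (H2ac20 in RefSeq), chr2:186469227-186469476, minus strand: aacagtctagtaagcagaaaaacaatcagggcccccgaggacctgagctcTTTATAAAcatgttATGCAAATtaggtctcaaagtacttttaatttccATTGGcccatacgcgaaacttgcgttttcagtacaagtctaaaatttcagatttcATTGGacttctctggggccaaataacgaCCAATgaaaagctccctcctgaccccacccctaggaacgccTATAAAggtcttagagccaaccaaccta
Hist3h2ba, chr10:44225171-44225420, plus strand: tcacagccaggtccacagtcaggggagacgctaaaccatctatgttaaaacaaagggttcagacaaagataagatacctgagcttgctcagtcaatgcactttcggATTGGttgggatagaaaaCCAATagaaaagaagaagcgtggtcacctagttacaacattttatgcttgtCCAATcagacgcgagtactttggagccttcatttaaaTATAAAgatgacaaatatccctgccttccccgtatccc
Hist3h2bb (H2bu1 in RefSeq), chr10:44233066-44233315, minus strand: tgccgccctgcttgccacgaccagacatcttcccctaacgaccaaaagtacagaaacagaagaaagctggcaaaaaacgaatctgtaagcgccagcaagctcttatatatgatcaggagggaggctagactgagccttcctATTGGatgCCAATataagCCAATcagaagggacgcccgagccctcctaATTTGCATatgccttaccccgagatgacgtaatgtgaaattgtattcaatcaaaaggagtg
H2afz (H2az1 in RefSeq), chr2:229028845-229029094, plus strand: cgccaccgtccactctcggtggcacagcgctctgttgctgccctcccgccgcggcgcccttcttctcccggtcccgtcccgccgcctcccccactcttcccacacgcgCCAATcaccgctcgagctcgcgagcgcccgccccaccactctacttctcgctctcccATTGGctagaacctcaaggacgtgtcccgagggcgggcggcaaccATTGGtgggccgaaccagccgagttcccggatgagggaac
H2afv (H2az2 in RefSeq), chr14:85526069-85526318, minus strand: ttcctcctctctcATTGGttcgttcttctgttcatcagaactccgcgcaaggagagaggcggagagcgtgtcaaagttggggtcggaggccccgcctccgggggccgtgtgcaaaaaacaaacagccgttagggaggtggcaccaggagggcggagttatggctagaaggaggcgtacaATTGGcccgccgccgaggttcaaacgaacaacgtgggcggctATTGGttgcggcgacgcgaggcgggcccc
H3f3b in RefSeq (the row named H3f3a), chr10:101757637-101757886, minus strand: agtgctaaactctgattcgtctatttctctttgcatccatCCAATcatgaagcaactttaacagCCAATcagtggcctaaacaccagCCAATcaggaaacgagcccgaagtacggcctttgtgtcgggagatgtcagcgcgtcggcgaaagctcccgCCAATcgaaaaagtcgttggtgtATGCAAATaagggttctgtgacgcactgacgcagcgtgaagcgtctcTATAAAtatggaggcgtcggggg
H3f3a in RefSeq (the row named H3f3b), chr13:95076696-95076945, minus strand: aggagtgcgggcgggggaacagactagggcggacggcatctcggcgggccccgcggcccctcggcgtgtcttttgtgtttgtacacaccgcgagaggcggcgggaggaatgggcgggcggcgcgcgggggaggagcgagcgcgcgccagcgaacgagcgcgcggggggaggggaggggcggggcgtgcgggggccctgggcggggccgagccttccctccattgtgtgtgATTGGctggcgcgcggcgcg

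A promoter could be matched for 28 histone genes with counts: the 27 with matching neighbours, 1 of which has no promoter entry, and both H3.3 genes by place. TATAAA was found in 14 of 19 replication-dependent promoters and in 1 of 9 replacement promoters, against 12.9% of all 33469 promoters of this length. CCAAT stood in all 19 and in 6 of 9, against 34% of all promoters. ATTTGCAT stood in 8 of 19, among them 4 of 6 H2B genes, and in 1 of 9, against 1.56% of all promoters. The replacement promoter with TATAAA and ATTTGCAT was the same promoter, that of H3f3b in RefSeq, which also had 4 matches of CCAAT. The median GC content was 43.2% for the replication-dependent and 65.6% for the replacement promoters, with 51.2% over all promoters. Hist2h2ac and Hist2h2be run in opposite directions from a common stretch: 225 of the 250 bases of their windows are the same DNA, so their motifs are not independent. A match is a description of letters, not a binding site.

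Histone genes went both ways between the pools. Of the 46 with counts, 30 passed edgeR's filter on low counts, and at an adjusted p under 0.05 pool A was the higher for 9 of these and pool B for 7. That is 16 of 30, while 40.6% of all 11582 genes tested passed in either direction (18.6% favoured pool A and 22.0% favoured pool B). Of the 23 replication-dependent genes tested, pool A was the higher for 7 and pool B for 3, a share of 43.5% in either direction. Of the 6 replacement genes tested, pool A was the higher for 1 and pool B for 4. The median log2 fold change, pool A over pool B, was 0.45 for the replication-dependent genes, -0.83 for the replacement genes and 0.02 for all genes tested. These are differences in the share recovered with each pool from the same cell line, and their cause was not tested. In bulk libraries, the number of cells that hold a transcript and its amount per cell cannot be told apart either.

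**Figure D1:**
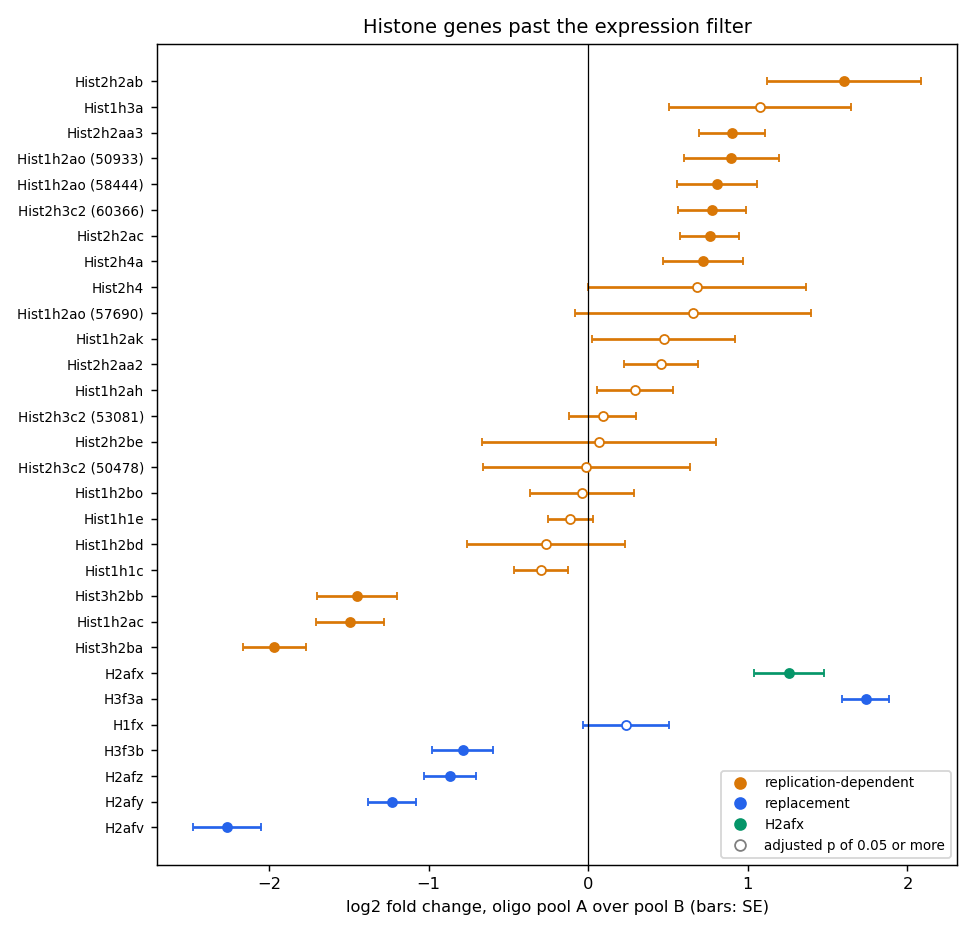
Log2 fold change (x axis, pool A over pool B, edgeR) of the 30 histone genes past the filter, with bars for the standard error; filled points have an adjusted p under 0.05, and names shared by several rows carry the last digits of the Ensembl identifier. The replacement genes spread from -2.26 (H2afv) to 1.74 (H3f3a), and the replication-dependent genes from -1.97 (Hist3h2ba) to 1.60 (Hist2h2ab).

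The rows named H3f3a and H3f3b moved in opposite directions. Both are known to encode the same H3.3 protein, which is placed into chromatin independently of DNA replication. The row named H3f3a had 1946, 2290 and 2155 CPM in the pool A libraries and 562, 831 and 736 CPM in the pool B libraries. Every pool A library was above every pool B library. The gene was 3.33-fold higher with pool A (log2 fold change 1.74 ± 0.15 SE, edgeR adjusted p 1.98e-10). The row named H3f3b had 46.1, 46.3 and 55.5 CPM with pool A and 71.6, 105.7 and 105.6 CPM with pool B. Here the pool B libraries were the higher ones, again without overlap (log2 fold change -0.79 ± 0.19 SE, edgeR adjusted p 0.00143). Within a library, the row named H3f3a received 42.2, 49.5 and 38.8 counts per count of H3f3b with pool A, and 7.85, 7.87 and 6.97 with pool B. These ratios do not depend on the scaling between libraries. Processed copies of H3.3 genes are known in mammals, and how reads were divided among copies is not stated. The row H3f3c had 5, 10 and 14 counts with pool A and 5, 0 and 5 with pool B, too few to be tested. Beside the row named H3f3a, Galk1 and Unk had log2 fold changes of 1.03 and 1.17 and were called too. Beside the row named H3f3b, Acbd3 (0.34) was not called and Sde2 (0.57) was called, in the other direction from H3f3b.

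The tested replacement forms of H2A, H2afx aside, were higher with pool B. H2afz and H2afv encode the H2A.Z proteins, which mark nucleosomes at promoters. H2afv had 19.8, 30.5 and 23.2 CPM with pool A and 101.9, 139.6 and 147.2 CPM with pool B. It was 4.81-fold higher with pool B (log2 fold change -2.26 ± 0.21 SE, edgeR adjusted p 1.05e-09). H2afz had 80.6, 74.7 and 112.9 CPM with pool A and 153.0, 176.9 and 208.1 CPM with pool B (log2 fold change -0.87 ± 0.16 SE, edgeR adjusted p 9.87e-05). The pools did not overlap for either gene. H2afz received 4.07, 2.45 and 4.86 counts per count of H2afv with pool A, and 1.50, 1.27 and 1.41 with pool B. H2afy encodes macroH2A1, a large H2A form known from silent chromatin. H2afy had 77.1, 81.9 and 101.3 CPM with pool A and 242.3, 233.2 and 198.2 CPM with pool B (log2 fold change -1.23 ± 0.15 SE, edgeR adjusted p 1.39e-07). The nearest tested rows on each side were Ppia (log2 fold change -3.13, called) and Purb (-0.22, not called) for H2afv, Dnajb14 (0.16, not called) and Lamtor3 (-1.04, called) for H2afz, and AABR07026997.1 (not called) and Txndc15 (-1.02, called) for H2afy. The related macroH2A2 gene H2afy2 had 1 to 8 counts per library and was not tested.

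The linker histone genes past the filter, of both classes, were not called. H1fx, a replacement H1, had 22.8, 26.5 and 34.2 CPM with pool A against 26.2, 32.3 and 20.1 CPM with pool B. For H1fx the log2 fold change of 0.24 had a 95% interval of -0.30 to 0.77 and an edgeR adjusted p of 0.528. Hist1h1e, the most counted replication-dependent member, had 390, 477 and 614 CPM with pool A and 549, 633 and 580 CPM with pool B. Here the log2 fold change was -0.11, with an interval of -0.38 to 0.16 and an edgeR adjusted p of 0.562. Hist1h1c had 146.5, 147.1 and 177.9 CPM with pool A and 145.9, 255.1 and 240.2 CPM with pool B, with a log2 fold change of -0.30, an interval of -0.62 to 0.03 and an edgeR adjusted p of 0.169. Without pool B replicate 1, the lowest pool B library, Hist1h1c was called higher with pool B (log2 fold change -0.51, edgeR adjusted p 0.00733). Hist1h1a had no count with pool A and 10, 7 and 4 counts with pool B, under the filter.

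H2afx encodes H2A.X, the H2A form that is phosphorylated at DNA breaks. It had 145.7, 161.0 and 158.4 CPM with pool A and 46.0, 117.2 and 56.7 CPM with pool B. Pool B replicate 2 lay far above the other two pool B libraries, yet below all of pool A. H2afx was called higher with pool A (log2 fold change 1.26 ± 0.22 SE, edgeR adjusted p 3.41e-05), and the log2 fold change was 1.73 without that library. The next row of the table, the clone-named AC105645.4, had a log2 fold change of 1.40 and was called, and the row before, Dpagt1, had 0.23 and was not (edgeR adjusted p 0.655). Whether reads of these neighbours were separated is not stated.

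**Figure D2:**
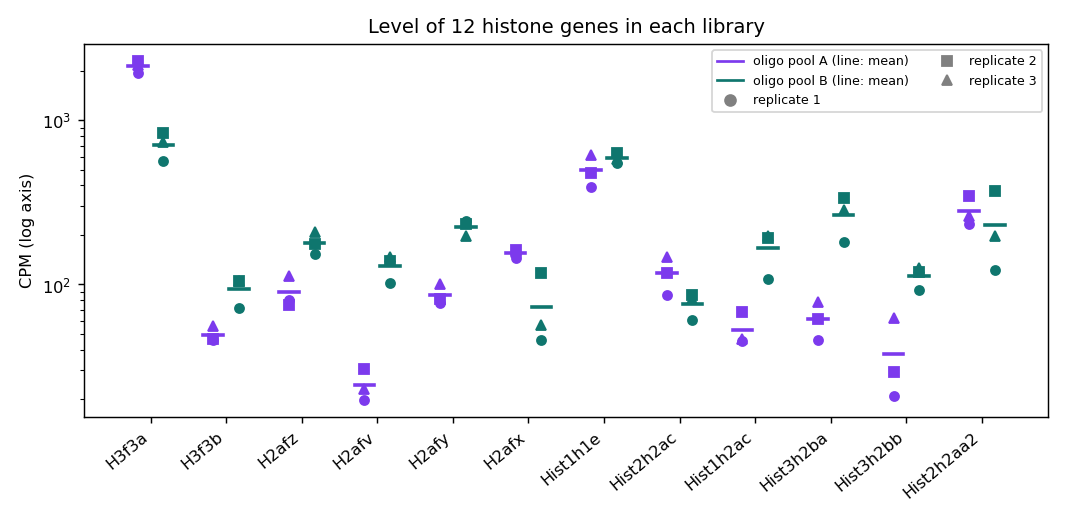
CPM (y axis, log scale) of 12 histone genes in each library; symbols are replicates and lines are pool means, and since CPM is not corrected for length, only values of the same gene can be compared. H3f3a, H2afx and Hist2h2ac are higher with pool A, and H3f3b, H2afz, H2afv, H2afy, Hist1h2ac, Hist3h2ba and Hist3h2bb with pool B, while both pools overlap for Hist1h1e and Hist2h2aa2.

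Of 10 replication-dependent H2A genes tested, pool A was the higher for 5 and pool B for 1, with a median log2 fold change of 0.71. Over all genes tested, 18.6% were called for pool A and 22.0% for pool B. Hist2h2ab had 13.3, 13.1 and 12.9 CPM with pool A and 3.1, 6.6 and 4.9 CPM with pool B (log2 fold change 1.60 ± 0.48 SE, edgeR adjusted p 0.00897). Its neighbour Hist2h2ac had 86.5, 117.1 and 146.8 CPM with pool A and 61.0, 86.0 and 81.3 CPM with pool B. The lowest pool A library was barely above the highest pool B library (log2 fold change 0.76 ± 0.19 SE, edgeR adjusted p 0.00153). Hist2h2aa3 had 90.1, 119.4 and 147.4 CPM with pool A and 57.3, 102.9 and 53.3 CPM with pool B (log2 fold change 0.90 ± 0.21 SE, edgeR adjusted p 0.00095). Hist2h2aa2, known as a nearly identical copy of it, had 233.6, 344.1 and 259.8 CPM against 122.0, 368.5 and 197.1 CPM and was not called (log2 fold change 0.45, edgeR adjusted p 0.126), but was with limma-voom (adjusted p 0.0247), with no filter (0.00864) and with the replicate block (0.0104). Pool B replicate 2 was the highest of all 6 libraries for this gene, and without it the gene was called (log2 fold change 0.94, edgeR adjusted p 0.000438). Without pool B replicate 1, the lowest library, the log2 fold change was 0.15 (edgeR adjusted p 0.626), and without pool A replicate 2 it was 0.26 (0.47). The division of reads between such copies is uncertain.

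The name Hist1h2ao stands on 5 rows, of which 3 were tested and 2 called (40.6% of all genes were). ENSRNOG00000050933 had 23.6, 22.1 and 36.4 CPM with pool A and 17.7, 13.7 and 16.6 CPM with pool B (log2 fold change 0.90, edgeR adjusted p 0.0173). ENSRNOG00000058444 had 42.9, 62.1 and 46.4 CPM with pool A and 23.2, 43.8 and 30.3 CPM with pool B (log2 fold change 0.81, edgeR adjusted p 0.011). Both calls depended on the libraries used. The first Hist1h2ao call was lost without pool A replicate 3 (adjusted p 0.11) or replicate 2 of pool B (0.0547), and the second without pool A replicate 2 (0.0903) or replicate 1 of pool B (0.077). The third Hist1h2ao row (ENSRNOG00000057690), Hist1h2ah and Hist1h2ak had log2 fold changes of 0.66, 0.29 and 0.47 and were not called. Hist1h2ah had 46.9, 56.6 and 50.2 CPM with pool A and 34.1, 69.0 and 38.2 CPM with pool B, while Hist1h2ak and that row had at most 52 and 21 counts in a library. The value of that row ranged over the alternatives from 0.12 (without pool B replicate 1) to 2.07 (without replicate 2 of pool B), and that of Hist1h2ak from 0.09 to 0.98, with no call. Without pool B replicate 2, Hist1h2ah was called as well (log2 fold change 0.63, edgeR adjusted p 0.0431).

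Hist1h2ac was the replication-dependent H2A gene called higher with pool B. It had 45.0, 67.6 and 46.4 CPM with pool A and 108.4, 191.1 and 197.5 CPM with pool B. The libraries of the pools did not overlap, and it was 2.82-fold higher with pool B (log2 fold change -1.49 ± 0.21 SE, edgeR adjusted p 1.63e-06). The nearest tested rows, AABR07027811.4 and AABR07072559.1, had log2 fold changes of -2.19 and -1.26 and were called as well.

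Of 5 H2B genes tested, 2 were called (40.6% of all genes were), both higher with pool B: Hist3h2ba and Hist3h2bb, which lie in neighbouring rows. Hist3h2ba had 45.9, 61.3 and 78.1 CPM with pool A and 180.3, 335.1 and 283.7 CPM with pool B. It was 3.91-fold higher with pool B (log2 fold change -1.97 ± 0.20 SE, edgeR adjusted p 3.51e-09). Hist3h2bb had 20.9, 29.3 and 62.7 CPM with pool A and 92.0, 118.8 and 125.6 CPM with pool B (log2 fold change -1.45 ± 0.25 SE, edgeR adjusted p 2.84e-05). Pool A replicate 3 was the highest pool A library for this pair and still lay below every pool B library. Rnf187, the row before this pair, and AC099089.1, the row after it, had log2 fold changes of 0.07 and 0.10 and were not called. Hist1h2bo (log2 fold change -0.04), Hist1h2bd (-0.27) and Hist2h2be (0.07) were not called either, with SE of 0.33, 0.50 and 0.73. Hist1h2bo had between 45 and 99 counts in a library and Hist1h2bd between 14 and 34. Hist2h2be, which shares its promoter stretch with Hist2h2ac, had 11, 18 and 4 counts with pool A and 6, 7 and 16 with pool B, so that its interval, from -1.37 to 1.51, includes the value of Hist2h2ac.

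Of the replication-dependent H3 genes 1 of 4 tested was called and of the H4 genes 1 of 2, against 40.6% of all genes. Hist2h3c2 (ENSRNOG00000060366) had 94.7, 92.9 and 110.1 CPM with pool A and 36.5, 82.1 and 75.7 CPM with pool B (log2 fold change 0.77 ± 0.21 SE, edgeR adjusted p 0.00472). Another row of that name (ENSRNOG00000053081) had 108.8, 125.4 and 139.6 CPM against 73.6, 188.9 and 129.8 CPM and was not called (log2 fold change 0.09, edgeR adjusted p 0.776). These rows of Hist2h3c2 did not give the same call, and how reads were divided between them is not known. The third tested row of the name (ENSRNOG00000050478, log2 fold change -0.01) and Hist1h3a (1.08 ± 0.57 SE) rested on at most 32 and 25 counts in a library and were not called. Hist2h4a had 37.2, 76.7 and 95.1 CPM with pool A and 43.6, 57.5 and 39.0 CPM with pool B. The pools overlapped, though the gene was called (log2 fold change 0.72 ± 0.25 SE, edgeR adjusted p 0.0213). The Hist2h4a call was lost without pool A replicate 2 (adjusted p 0.0956), pool A replicate 3 (0.152), replicate 1 of pool B (0.0698) and replicate 3 of pool B (0.103), with total counts alone (0.0692) and with limma-voom (0.0594). Hist2h4, with between 2 and 22 counts in a library, was not called (log2 fold change 0.68 ± 0.68 SE).

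Counts summed over a class are less open to how reads were divided among copies. The 35 replication-dependent genes summed to 1487, 1896 and 2114 CPM with pool A and to 1599, 2657 and 2174 CPM with pool B. The pools overlapped, and the mean difference on the log2 scale was -0.21 on total counts and -0.06 on the TMM sizes used in the fit. Pool B replicate 2 was the highest library, and without it the difference was -0.04 on total counts, while without replicate 1, the lowest of pool B, it was -0.41. By type, H2B summed to 133 ± 49 CPM for pool A and 417 ± 103 CPM for pool B (SD, n = 3 each), without overlap between libraries. This gap lay in Hist3h2ba and Hist3h2bb: the other 5 H2B genes summed to 20.3, 37.2 and 43.6 CPM for pool A and 29.0, 45.4 and 40.5 CPM for pool B, with overlap. H2A summed to 736 ± 120 against 664 ± 244 CPM, H1 to 651 ± 130 against 805 ± 98 CPM, H3 to 238 ± 24 against 207 ± 85 CPM, and H4 to 74.1 ± 28.7 against 49.9 ± 7.9 CPM (SD, n = 3 each), all with overlapping libraries. Without pool B replicate 1 the log2 difference of H2A went from 0.20 to -0.07 and that of H3 from 0.29 to -0.08, and without 1 library each that of H4 ranged from 0.24 to 0.85. For H1 the log2 difference was -0.32 and ranged from -0.47 to -0.19 without 1 library each.

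The 10 replacement genes summed to 2196, 2555 and 2487 CPM with pool A and to 1163, 1522 and 1417 CPM with pool B. The row named H3f3a held 88.3% of this sum with pool A and 51.6% with pool B. Without it, the direction turned: the other 9 genes summed to 249, 265 and 332 CPM with pool A and to 601, 690 and 681 CPM with pool B. The same holds for the balance of the classes. Within a library there were 0.677, 0.742 and 0.850 replication-dependent counts per replacement count with pool A and 1.37, 1.75 and 1.53 with pool B. Without H3f3a the ratio was 5.96, 7.15 and 6.36 with pool A and 2.66, 3.85 and 3.19 with pool B. The direction of the contrast between the classes thus turned with H3f3a.

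**Figure D3:**
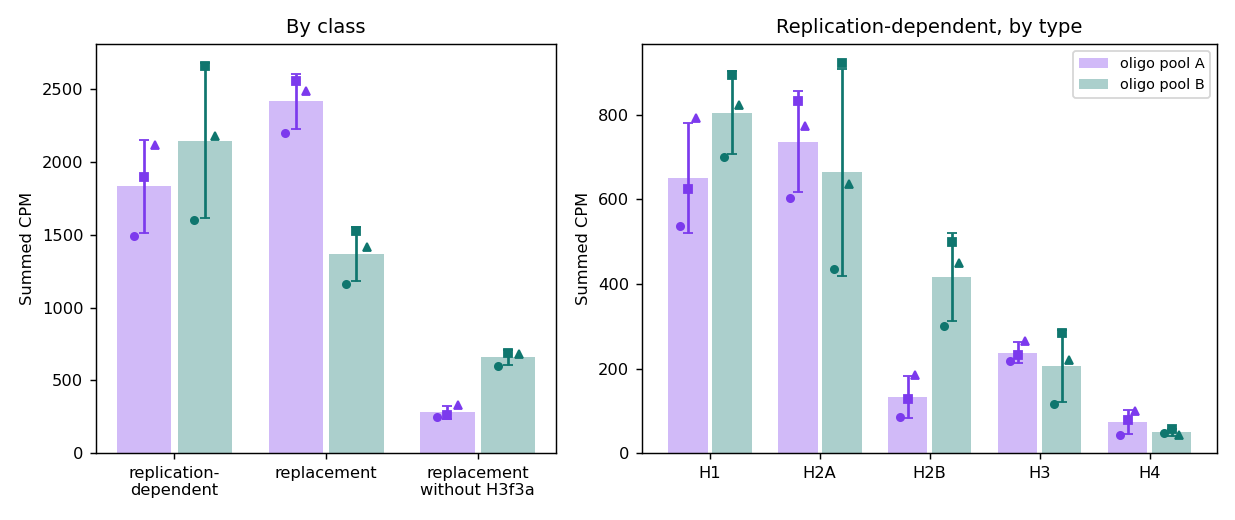
Summed CPM (y axis) by class (left) and by histone type within the replication-dependent class (right); bars are means, error bars SD and symbols the 3 replicates of each pool. The replacement sum is higher with pool A (2412 against 1367 CPM) and, without H3f3a, higher with pool B (658 against 282 CPM), and of the 5 types only H2B has pools that do not overlap, a gap that lies in the Hist3h2ba and Hist3h2bb pair.

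Position in the table, which runs along the chromosomes, gave a description of the clusters. In the run of 12 rows from Hist2h2ab to Hist2h3c2, all 7 histone genes were tested, all 7 had a positive log2 fold change (0.07 to 1.60), and 4 were called higher with pool A. The sign was not stable for Hist2h2be and Hist2h3c2 (ENSRNOG00000053081). Their values were -0.09 and -0.05 with total counts alone, and -0.27 and -0.20 without pool B replicate 1. The run holds the near copies Hist2h2aa2 and Hist2h2aa3 and several rows named Hist2h3c2, so its genes are not independent. Over all genes, 5866 of 11582 had a positive value, 18.6% were called for pool A and 22.0% for pool B. Bola1, the row before the run and no histone gene, was called too (0.97). Of 5 further rows in this run with clone-based or LOC names, 4 were called higher with pool A and the other 1 was not called. In the long run of 84 rows from Hist1h2aa to Hist1h2ak, 13 of 32 histone genes were tested, and the calls favoured pool A in 3 and pool B in 1. The calls for pool A include Hist2h4a, a row with a Hist2 name. There, 7 of 38 rows with clone-based or similar names were tested, and the calls favoured pool A in 2 and pool B in 4. The table gives no histone type for these unnamed rows, and they were looked at after the values were seen.

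**Figure D4:**
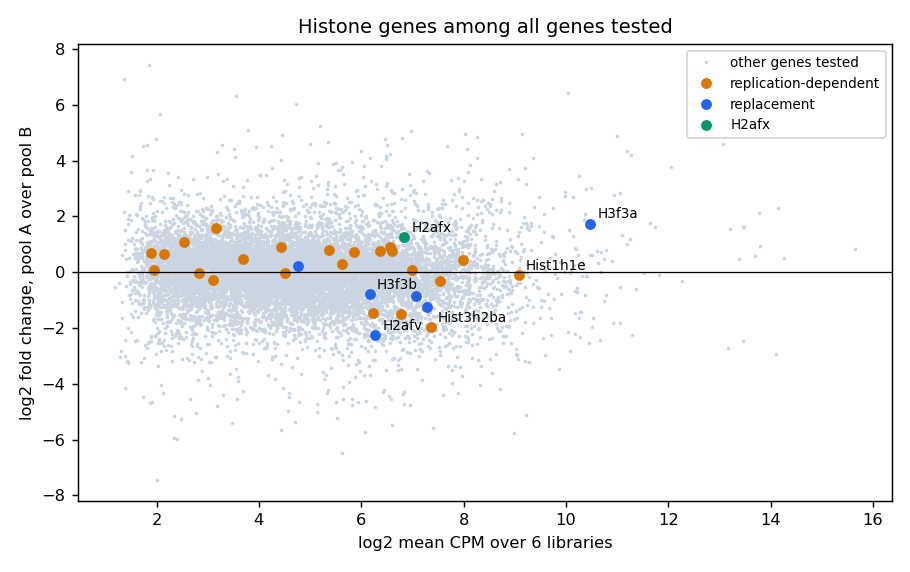
Log2 fold change (y axis, pool A over pool B) against log2 mean CPM (x axis) for all 11582 genes tested (grey), with the histone genes in colour. The histone genes lie within the spread of the other genes, between -2.26 and 1.74.

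The remaining histone genes were at or near the limit of detection. No count was found for 11 of the 57 rows. A further 16 rows had counts but did not pass the filter, 12 replication-dependent and 4 replacement. Most had fewer than 10 counts in every library; exceptions were H3f3c, Hist1h1a, Hist1h2ai (2, 7 and 5 counts in pool A, 3, 14 and 8 in pool B) and a row named Hist1h2ao (ENSRNOG00000054017; 9, 8 and 19 counts against 3, 6 and 6). The germ-cell genes Hist1h2aa, Hist1h1t and H1foo had at most 4 counts in a library, and the replacement gene H2afj at most 2. When all genes were fitted with no filter, which called 25.1% of 18911 genes, 1 of these 16 rows was called, Hist1h1a (higher with pool B, edgeR adjusted p 0.018). For the other 15 a difference was not detectable at this depth.

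The CPM ranges of the pools were apart for 14 of the 30 histone genes tested, and for 49.1% of all genes tested. By class it was 8 of 23 replication-dependent and 5 of 6 replacement genes, and H2afx.

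Genes that process histone mRNA were measured in the same fit. Of 26 listed names, 23 had rows, and 22 rows were tested; pool A was the higher for 4 and pool B for 3, with a median log2 fold change of 0.28. This was 31.8% called, against 40.6% of all genes tested. Slbp, whose protein binds the stem-loop, had 42.1 CPM with pool A and 83.7 CPM with pool B on average (log2 fold change -0.85 ± 0.21 SE, edgeR adjusted p 0.00166). Cpsf2, a subunit of the cleavage complex, was higher with pool B (log2 fold change -1.04, edgeR adjusted p 1.94e-05), while the values of its partner Cpsf3 did not pass (-0.37, edgeR adjusted p 0.177). The list held 5 genes of Sm proteins, which sit on the U7 particle and on spliceosomal particles alike. Snrpg (log2 fold change 4.55) and Snrpf (2.83) were higher with pool A, but Snrpd3 (-1.17) was higher with pool B, with edgeR adjusted p of 2.67e-14, 6.24e-13 and 6.35e-05, and Snrpb (-0.25) and Snrpe (0.26) were not called. Ddx19b, an export helicase, was higher with pool A (log2 fold change 1.63, edgeR adjusted p 1.3e-09). Lsm10 and Lsm11, which are specific to the U7 particle, had low levels and were not called (log2 fold changes -0.87 and 0.97).

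Histone chaperones carry histones to and from DNA. Of 36 names, on 38 rows, 37 rows were tested, and pool A was the higher for 12 and pool B for 3, with a median log2 fold change of 0.27. The share called, 40.5%, was that of all genes tested (40.6%). Npm1, a nucleolar chaperone, had 4636 CPM with pool A and 277 CPM with pool B on average (log2 fold change 4.20 ± 0.16 SE, edgeR adjusted p 1.77e-17). Mcm2, which binds H3 and H4 at the replication fork, had a log2 fold change of 3.17, and Hat1, which acetylates new H4, of 1.88. Supt6h and Hirip3, the latter named for its contact with the H3.3 chaperone Hira, followed with 1.77 and 1.61. All of these were called (highest edgeR adjusted p 0.00012, for Hat1). Chaf1a, of the complex that deposits replication-dependent H3, was higher with pool B (log2 fold change -1.17), while its partners Chaf1b (0.05) and Rbbp4 (1.01) were not called. Ubn1, of the Hira complex, and Atrx, the partner of Daxx, were higher with pool A (log2 fold changes 1.03 and 0.91, edgeR adjusted p 1.31e-05 and 5.01e-05), and Hira (-0.19), Ubn2 (-0.13), Cabin1 (0.14) and Daxx (-0.12) were not called. Anp32e, a chaperone that removes H2A.Z, was higher with pool A (1.55). Of 20 S-phase genes, 19 were tested, and pool A was the higher for 4 and pool B for 4 (42.1% called, near the 40.6% of all genes), with a median log2 fold change of 0.06.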

How the data were processed

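RNA from pull-downs with oligo pool A or oligo pool B was sequenced in 3 libraries each. The authors deposited a table of raw counts per Ensembl gene. STAR and featureCounts are named in the submitters' processing notes; their versions, settings, the genome build and the annotation are not given in the sources used here. The table's 2 columns of pool means, taken by the authors (other than counts), were not used.

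Counts were tested with edgeR 4.0.16 in R 4.3.3: library sizes were scaled by TMM, genes of low counts were removed with filterByExpr, and pool was the only term of the quasi-likelihood test, adjusted by Benjamini-Hochberg over all 11582 genes tested. Standard errors come from the fold change and its F statistic, and 95% intervals are the fold change ± 1.96 SE. CPM uses total counts. Classes, sums and ratios were described without a test. The alternatives were other scalings and filters, DESeq2 1.42.0, limma-voom (limma 3.58.1), a replicate block, other member sets and leaving out each library. The members and gene lists were chosen with earlier results of these data known. Named were all histone genes past the filter, and for the processing and chaperone lists up to 5 called genes each with the largest fold changes and a mean of at least 10 counts; others named from the lists (Slbp, Cpsf3, Lsm10, Lsm11, Snrpb, Snrpe, Chaf1a, Chaf1b, Rbbp4, Hira, Ubn1, Ubn2, Cabin1, Daxx, Atrx, Anp32e) were added after their values were seen. Replicate libraries of a pool differed by more than counting noise (chi-square per degree of freedom between 5.86 and 20.7), so none was taken as a repeat deposit of another. Same-numbered libraries deviated together with r of 0.0402, -0.0204 and 0.0183 and were not treated as pairs. RefSeq (GRCr8) served only to compare neighbouring genes and for promoter sequences, since the build of the table is not stated.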

Additional observations from a re-analysis of the deposited data

How the results depend on the processing

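Refits were counted for 40 genes, the 30 histone genes past the filter and the list genes named by rule. The list genes added after their values were seen were not among these 40. Of 600 refits, 584 gave the same call (values not called could change sign). A further 10 lost a call and 6 gained one, all of them refits of Hist2h2aa2, Hist2h4a, Hist1h2ah, Hist1h1c and rows of Hist1h2ao. Apart from refits without a library, these counts of calls moved by over 1.5 times, and these sums and ratios by more than the SD between replicates. With upper-quartile factors, 7 in place of 4 histone mRNA processing genes were higher with pool A, and 2515 in place of 2154 of all genes. This scaling moved the median log2 fold change of all genes by 0.10, and total counts alone moved it by -0.14. Without the most abundant member of each class, the log2 difference of the summed replacement CPM went from 0.83 to -1.23, that of the H2B sum from -1.68 to -1.17, and that of the ratio of replication-dependent to replacement counts from -1.04 to 1.05. In alternatives chosen after seeing the data, leaving out H3f3a alone gave 1.02 for this ratio, and leaving out the Hist3 pair gave -0.23 for the H2B sum. When a library was left out, replication-dependent genes higher with pool A numbered from 5 to 8. The median log2 fold change of this class ranged from 0.11 to 0.63, while the replacement calls stayed at 1 and 4. Over all genes tested, those higher with pool A then numbered from 1856 to 2048 and those higher with pool B from 2194 to 2390. With the replicate block, pool A was the higher for 10 histone genes and pool B for 7, and over all genes tested for 2085 and 2476. Hist2h2aa2 gained a call (edgeR adjusted p 0.0104). These libraries share only a number, with no sign of pairing. Depth limits statements on the 27 rows that did not pass the filter.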
